A study of Mus musculus with 24 samples.

Results

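The genes described here are 37 members of the DNA replication machinery, taken by symbol from a table of 55487 mouse genes. They comprise 8 genes of origin licensing and the MCM2-7 helicase (*Cdc6*, *Cdt1*, *Mcm2*, *Mcm3*, *Mcm4*, *Mcm5*, *Mcm6* and *Mcm7*), 6 of helicase activation (*Mcm10*, *Cdc45*, *Gins1*, *Gins2*, *Gins3* and *Gins4*), 4 of the polymerases and primase (*Pola1*, *Prim1*, *Pole* and *Pold1*) and 6 of the sliding clamp and its loader (*Pcna*, *Rfc1*, *Rfc2*, *Rfc3*, *Rfc4* and *Rfc5*). The others are 2 genes of Okazaki fragment maturation (*Fen1* and *Lig1*), 4 of deoxynucleotide supply (*Rrm1*, *Rrm2*, *Tyms* and *Tk1*), 4 of chromatin duplication (*Chaf1a*, *Chaf1b*, *Uhrf1* and *Slbp*) and 3 regulators of the G1/S transition (*Ccne1*, *Ccne2* and *E2f1*). All 37 passed the filter on low counts that left 15401 genes to test. The mRNA of mouse embryonic fibroblasts (MEFs) was sequenced in 24 libraries, 4 in each of 6 groups. WT MEFs and MEFs that lack TFEB and TFE3 (*tfeb tfe3* DKO), transcription factors of lysosomal and autophagy genes, received DMSO as vehicle (0.1%), torin1 (100 nM), which inhibits the kinase MTOR, or MK-8722 (10 µM), which activates the kinase AMPK. The design asks which drug effects need TFEB and TFE3, and the duration of treatment of the sequenced cultures is not given in the sources used here. Both genotypes are cell lines supplied by another laboratory, WT at passages 7, 8, 9 and 11 and DKO at passages 8, 9, 10 and 11, so that the genotype and other differences between the lines cannot be told apart.

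Before each S phase, CDC6 and CDT1 load the MCM2-7 helicase onto origins, and MCM10, CDC45 and the GINS complex then turn it into a moving helicase. Polymerase α with its primase lays primers, polymerases ε and δ copy the leading and lagging strands with the PCNA clamp that the RFC complex loads, and FEN1 and LIG1 join the Okazaki fragments. Cyclin E and the E2F factors drive entry into S phase, and many of these genes are E2F targets whose mRNA is most abundant around the G1/S boundary.

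Promoter sequences were available from RefSeq (GRCm38.p6) for 30 of the 37 genes, as windows of 300 bases that end 50 bases after the start site. Of the E2F consensus, 3 spellings were searched on both strands, TTTCCCGC, TTTGGCGC and TTTGGCGG, of which the last 2 share their first letters. Other spellings were not searched, so a window without a match may still hold an E2F site. At least 1 of the 3 was present in the windows of 12 of 30 members (40.0%). The share was 2.39% of 27025 genes in the RefSeq table and 4.44% of the 10562 tested genes in it. The letters CCAAT, bound by NF-Y, were held by 60.0% of the members' windows and 43.5% of those of tested genes, and the E-box CACGTG, which contains the core that TFEB and TFE3 bind, by 16.7% and 11.6%. All 4 members that rose with torin1 in WT and had a window (*Cdt1*, *Mcm7*, *Pola1* and *Pold1*) held an E2F match, against 2 of 10 that fell (*Cdc6* and *Chaf1a*) and 6 of 16 that were not called. The same split was 0 of 4, 3 of 10 and 2 of 16 for the E-box, and 2 of 4, 5 of 10 and 11 of 16 for CCAAT. The E2F matches of *Cdt1* and *Pold1* lie 32 and 39 bases after the RefSeq start site. Those of *Mcm7* and of *Cdc6*, which fell, each lie in a window inside the gene that holds exon bases of that gene. These matches are counts of letters and were not tested. The bases upstream of 5 genes were picked, after their values were seen, to set genes that rose with torin1 (*Pola1* and, in DKO, *Mcm6*) beside genes that fell (*Chaf1a*, *Ccne1* and *Rrm2*), with capitals on the E2F matches and 5′ to 3′ along the gene. The regions are chrX:93632156-93632405, minus strand for *Pola1*, chr1:128359706-128359955, minus strand for *Mcm6*, chr17:56040166-56040415, plus strand for *Chaf1a*, chr7:38107535-38107740, minus strand for *Ccne1* and chr12:24708004-24708240, plus strand for *Rrm2*.
Pola1: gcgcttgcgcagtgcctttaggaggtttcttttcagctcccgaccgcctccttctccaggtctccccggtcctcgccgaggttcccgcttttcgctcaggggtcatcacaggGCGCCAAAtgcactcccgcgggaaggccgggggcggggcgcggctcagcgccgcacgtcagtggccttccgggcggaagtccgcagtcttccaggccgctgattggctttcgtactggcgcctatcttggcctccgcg
Mcm6: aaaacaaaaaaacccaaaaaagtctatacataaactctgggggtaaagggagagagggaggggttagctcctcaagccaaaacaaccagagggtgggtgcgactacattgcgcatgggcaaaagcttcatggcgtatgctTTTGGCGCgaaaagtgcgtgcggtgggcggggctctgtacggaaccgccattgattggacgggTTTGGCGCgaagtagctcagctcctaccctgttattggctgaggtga
Chaf1a: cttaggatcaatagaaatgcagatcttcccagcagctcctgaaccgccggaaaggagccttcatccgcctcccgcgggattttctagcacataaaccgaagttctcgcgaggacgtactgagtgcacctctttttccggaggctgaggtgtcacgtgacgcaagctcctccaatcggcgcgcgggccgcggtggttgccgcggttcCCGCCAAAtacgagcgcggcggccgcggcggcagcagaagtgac
Ccne1: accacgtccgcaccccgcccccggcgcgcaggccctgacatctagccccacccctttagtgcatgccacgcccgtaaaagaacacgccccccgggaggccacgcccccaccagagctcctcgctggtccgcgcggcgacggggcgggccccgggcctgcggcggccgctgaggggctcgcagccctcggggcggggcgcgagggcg
Rrm2: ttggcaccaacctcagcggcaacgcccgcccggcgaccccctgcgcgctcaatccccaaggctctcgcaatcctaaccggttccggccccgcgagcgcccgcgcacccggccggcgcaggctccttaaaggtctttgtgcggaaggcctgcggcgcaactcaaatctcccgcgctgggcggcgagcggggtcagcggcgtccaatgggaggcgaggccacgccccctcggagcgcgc
*Mcm6* holds 2 matches on its own strand, *Pola1* and *Chaf1a* hold 1 each on the other strand, and neither *Ccne1* nor *Rrm2* holds these letters in the stretch shown.

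The libraries held 24668921 to 33332562 counts. The RNA integrity number was 7.9 in DKO MK-8722 replicate 3 and 9.7 to 9.9 in every other library. *Tfeb* measured 14.01 to 25.0 CPM (counts scaled for library size) in WT and 1.34 to 2.65 CPM in DKO libraries, whereas *Tfe3* mRNA was not lower in DKO (89.5 to 126 CPM, compared to 77.5 to 122 CPM in WT), so that *Tfe3* counts do not check that label. Of 10 fibroblast markers, *Col1a1*, *Vim* and *Fn1* were abundant in all libraries, *Lum* stayed at or under 0.0747 CPM and *Dcn* at or under 1.14 CPM, and *Thy1* was 2.22 to 4.52 CPM in WT and at most 0.0385 CPM in DKO. The summed level of 4 epithelial markers was 2.77 to 4.58 CPM in WT under DMSO, 5.54 to 7.46 CPM under torin1 and 3.81 to 5.15 CPM under MK-8722, and in DKO 2.99 to 4.86, 9.87 to 14.5 and 5.99 to 11.2 CPM. That of 3 leukocyte markers was 1.57 to 2.24, 4.11 to 6.41 and 10.1 to 14.3 CPM in WT and 4.10 to 5.98, 4.78 to 8.59 and 7.82 to 11.2 CPM in DKO. Almost all of it was *Cd68*, with *Ptprc* at or under 0.195 CPM and *Adgre1* at 0 in every library. The sum of 3 endothelial markers stayed at or under 1.31 CPM in every library. In DKO the epithelial sum was mostly *Krt8* (2.76 to 14.2 CPM), with *Epcam*, *Cdh1* and *Krt18* each at or under 0.336 CPM. In WT *Krt8* was 1.77 to 4.56 CPM and *Cdh1* 0.572 to 1.86 CPM. The epithelial sum under torin1 and the leukocyte sum under MK-8722, in effect *Cd68* alone, lay above those under DMSO in both genotypes. Their part in the results was not tested.

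Expressed per transcript length, the members differed widely in level in WT MEFs under DMSO. *Pcna*, the sliding clamp, was the most abundant at 421 ± 14.7 TPM (counts scaled for transcript length and library size, mean ± SD, n = 4), followed by the helicase subunits *Mcm7* at 306 ± 11.6 TPM, *Mcm5* at 279 ± 4.45 TPM and *Mcm2* at 278 ± 11.6 TPM, of which the last pair did not differ beyond their spread. The lowest were the GINS subunit *Gins3* at 15.3 ± 0.733 TPM, the polymerase α catalytic subunit *Pola1* at 26.7 ± 0.856 TPM and cyclin E1, *Ccne1*, at 37.5 ± 4.19 TPM. The leading transcript of *Ccne1* held between 59.9% and 67.1% of the gene's summed TPM as group means and that of *Pole* between 55.4% and 62.3%, with no test made.

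Torin1 lowered the G1/S cyclins, 3 of 4 nucleotide genes and *Fen1* in WT MEFs. It raised *Cdt1* and the catalytic polymerase genes *Pole*, *Pold1* and *Pola1*, but not their further subunits as a set (given below). In bulk RNA, fewer cells in S phase and less mRNA per cell cannot be told apart. Of the 37 genes, 12 were downregulated and 5 upregulated (fold change, FC, of at least 1.2 and adjusted p under 0.05 in edgeR's quasi-likelihood test over all tested genes). Among all tested genes, 20.5% were downregulated and 26.6% upregulated. The median log2 FC of the members was -0.10, against 0.05 for all genes. By role, 2 of 3 G1/S regulators, 3 of 4 nucleotide genes, 2 of 4 chromatin genes, 2 of 6 helicase activators and 1 each of the clamp, Okazaki and licensing genes fell, while 3 of 4 polymerase genes and 2 of 8 licensing genes rose.

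The largest fall was that of *Ccne1*, which encodes the cyclin that activates CDK2 at the G1/S transition. Its WT libraries measured 38.4, 34.3, 32.0 and 31.3 CPM under DMSO and 14.5, 10.96, 12.8 and 12.03 CPM under torin1. Every torin1 library lay below every DMSO library, and *Ccne1* was 2.71-fold lower (log2 FC -1.44, SE 0.09, adjusted p = 6.99e-12). *Ccne2*, the second cyclin E gene, fell from 35.1, 30.0, 33.0 and 35.6 CPM to 17.01, 15.6, 18.99 and 17.8 CPM without overlap (log2 FC -0.95, SE 0.07, adjusted p = 2.04e-10). *Rrm2*, the small subunit of ribonucleotide reductase, which makes deoxynucleotides, measured 195, 183, 199 and 198 CPM under DMSO and 94.8, 96.7, 101.9 and 105 CPM under torin1, again without overlap (log2 FC -0.96, SE 0.06, adjusted p = 1.48e-12). Its partner *Rrm1*, the large subunit, had a log2 FC of -0.21, which missed the fold limit. The other nucleotide genes fell as well. *Tk1*, the S-phase thymidine kinase, went from 168, 174, 177 and 178 CPM to 100.04, 106, 109 and 104 CPM (log2 FC -0.74, SE 0.04, adjusted p = 9.39e-13). *Tyms*, which makes thymidylate, went from 109, 104, 99.7 and 105 CPM to 68.2, 68.2, 67.0 and 66.1 CPM (log2 FC -0.63, SE 0.04, adjusted p = 1.42e-11). Neither gene had overlapping libraries. *Fen1*, the flap endonuclease of Okazaki fragments, fell from 167, 166, 162 and 166 CPM to 101.95, 100.5, 98.8 and 101.7 CPM with no overlap (log2 FC -0.71, SE 0.04, adjusted p = 8.77e-13), whereas *Lig1*, the ligase of the same step, had a log2 FC of 0.10 and was not called. The licensing factor *Cdc6* fell (log2 FC -0.68, SE 0.05, adjusted p = 3.60e-11), and so did *Gins1* by 0.46, *Pcna* by 0.45, *Chaf1a*, the large subunit of the histone chaperone CAF-1, by 0.44, the histone mRNA binding protein *Slbp* by 0.30 and *Cdc45* by 0.27 on the log2 scale.

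The genes that rose with torin1 in WT were *Cdt1*, *Pold1*, *Pole*, *Mcm7* and *Pola1*. *Cdt1*, the loading factor that works beside CDC6, measured 187, 200.2, 193 and 189.9 CPM under DMSO and 277, 278, 270.0 and 298 CPM under torin1 (log2 FC 0.54, SE 0.05, adjusted p = 6.00e-10). *Pold1*, the catalytic subunit of polymerase δ, measured 125, 133, 129 and 129 CPM and 189.9, 187, 175 and 191 CPM (log2 FC 0.53, SE 0.04, adjusted p = 3.42e-10), and *Pole*, that of polymerase ε, 145, 139, 143 and 136 CPM and 191, 195, 194 and 199.9 CPM (log2 FC 0.47, SE 0.03, adjusted p = 2.73e-11). In all 3 genes every torin1 library lay above every DMSO library. *Cdc6* and *Cdt1*, both needed to load MCM2-7, moved in opposite directions. *Mcm7* rose (log2 FC 0.30, SE 0.04, adjusted p = 2.57e-07) as the only called subunit of its helicase in WT, and the log2 FC of the other MCM2-7 genes ran from -0.17 in *Mcm4* to 0.23 in *Mcm6*. *Pola1* (log2 FC 0.27, SE 0.04, adjusted p = 5.89e-06) lay at the fold limit of 0.263 on the log2 scale and lost its call when any of 17 libraries was left out, with a log2 FC of 0.24 to 0.26. *Cdc45* lost its call without WT DMSO replicate 4 (-0.26), and *Uhrf1* (-0.24) gained one without WT torin1 replicate 1 or 3 or WT MK-8722 replicate 4 (-0.27 to -0.26). Scaling by library size alone, which moves the median of all genes by 0.092 on the log2 scale, gave 7 members up and 10 down, and *Slbp* (-0.21) and *Cdc45* (-0.18) were then not called. Under that scaling the share of all genes called was not taken, here or below.

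**Figure D1:**
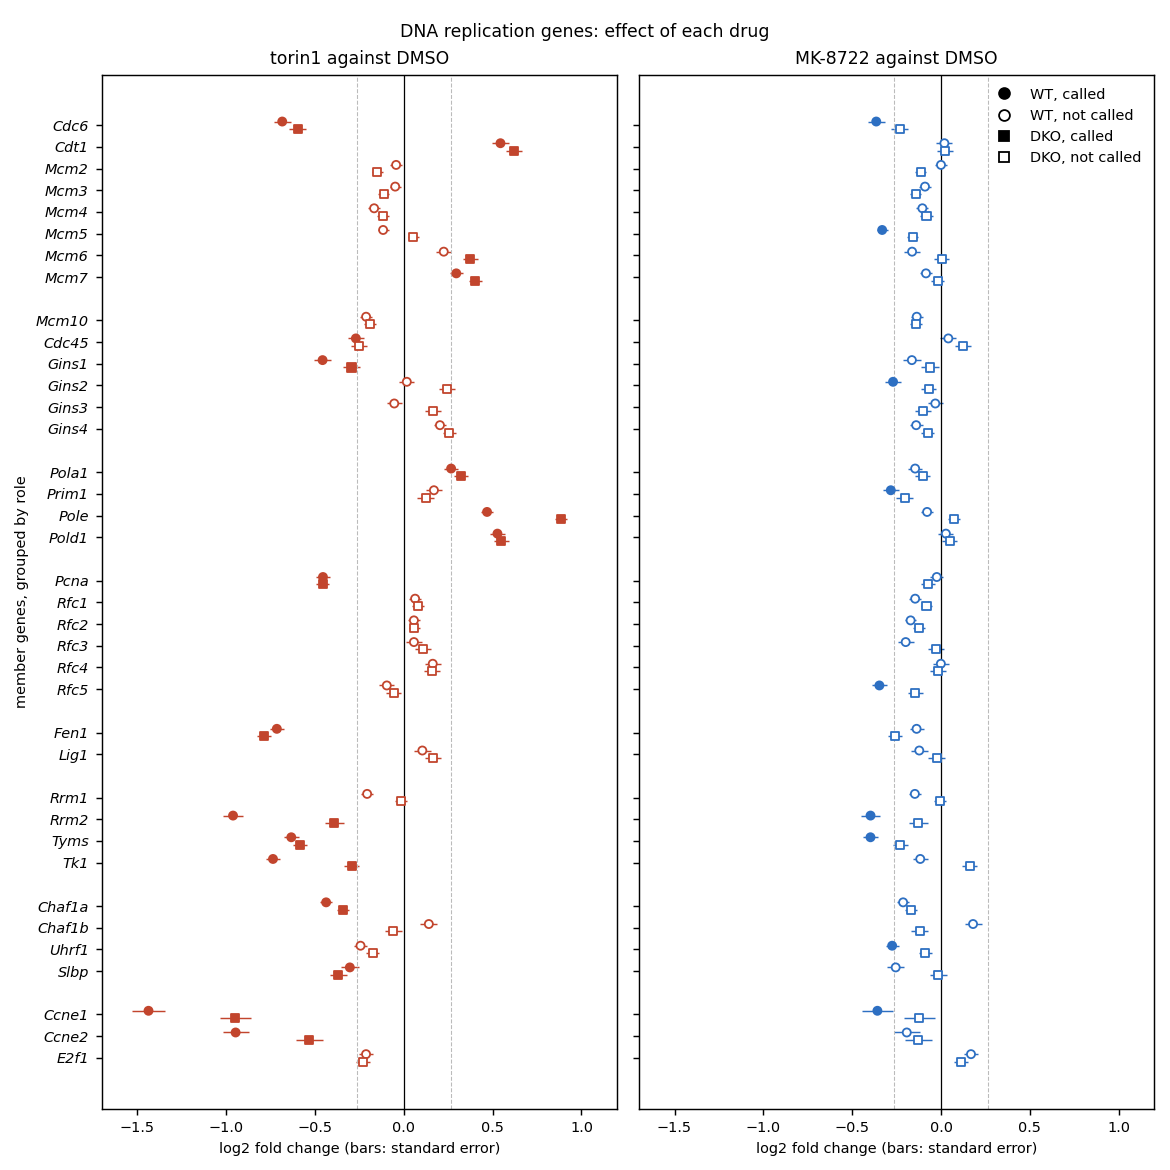
Log2 FC of each member (rows, grouped by role) with torin1 (left, red) and with MK-8722 (right, blue) against DMSO, with circles for WT, squares for *tfeb tfe3* DKO, filled symbols for called genes, bars for the standard error and dashed lines at the fold limit. *Ccne1* reaches -1.44 in WT with torin1, the polymerase genes *Pole* and *Pold1* and the licensing gene *Cdt1* lie right of the upper limit in both genotypes, and with MK-8722 no member lies right of it.

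In *tfeb tfe3* DKO MEFs torin1 downregulated 11 members and upregulated 6, and 20.2% and 23% of all tested genes moved down and up. The median log2 FC was -0.06 for the members and 0.02 for all genes, and scaling by library size alone gave 8 up and 9 down, without *Tk1* and *Gins1* (both -0.26). *Ccne1* again fell furthest, from 39.3, 39.1, 40.0 and 38.5 CPM under DMSO to 18.5, 22.02, 19.4 and 21.4 CPM (log2 FC -0.95, SE 0.09, adjusted p = 4.51e-09). *Fen1* measured 116, 113, 120.1 and 115 CPM and 62.0, 67.1, 72.4 and 67.5 CPM (log2 FC -0.78, SE 0.04, adjusted p = 2.89e-13). *Rrm2* went from 234, 218.6, 242 and 232 CPM to 172, 187, 181 and 167 CPM (log2 FC -0.39, SE 0.05, adjusted p = 1.88e-06). In these 3 genes the torin1 libraries of DKO lay below all of its DMSO libraries. *Tyms* (98.3, 95.1, 104 and 97.2 CPM, then 62.2, 69.1, 66.0 and 66.2 CPM) and *Ccne2* (25.4, 29.2, 24.9 and 25.1 CPM, then 17.7, 18.1, 16.6 and 19.9 CPM) fell too, with log2 FC of -0.58 (adjusted p = 6.28e-11) and -0.53 (adjusted p = 1.99e-06). *Tk1* measured 131, 128, 140.3 and 132 CPM and 109, 111, 102.2 and 112 CPM (log2 FC -0.29, SE 0.04, adjusted p = 1.92e-06), without overlap, and its call was lost without DKO torin1 replicate 3 (log2 FC -0.26). The other downregulated genes were *Cdc6* (-0.60), *Pcna* (-0.46), *Slbp* (-0.37), *Chaf1a* (-0.34) and *Gins1* (-0.29, log2 FC). Of the genes not called, *Gins4* (0.26), *Gins2* (0.24) and *Cdc45* (-0.25) gained calls without any 1 of 7, 2 and 3 libraries, reaching 0.28, 0.28 and -0.28.

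*Pole* rose most in DKO, from 125, 125, 118 and 119 CPM to 225, 224, 222 and 229 CPM, 1.85-fold with no overlap (log2 FC 0.88, SE 0.03, adjusted p = 2.31e-15). *Cdt1* rose from 186, 197, 182 and 179 CPM to 286, 297, 282 and 279.8 CPM (log2 FC 0.62, SE 0.05, adjusted p = 8.23e-11) and *Pold1* from 157, 162, 147 and 145 CPM to 230.0, 227, 216 and 222 CPM (log2 FC 0.55, SE 0.04, adjusted p = 2.05e-10), both without overlap. *Mcm7* (0.40), *Mcm6* (0.38) and *Pola1* (0.32, log2 FC) completed the upregulated genes, whereas *Mcm2* (-0.15), *Mcm3* (-0.11) and *Mcm4* (-0.12) had log2 FC below 0 and were not called. The libraries of 28 members did not overlap between torin1 and DMSO, 18 lower and 10 higher, in WT and again in DKO, as was the case for 54.1% of all tested genes in WT and 52.8% in DKO.

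**Figure D2:**
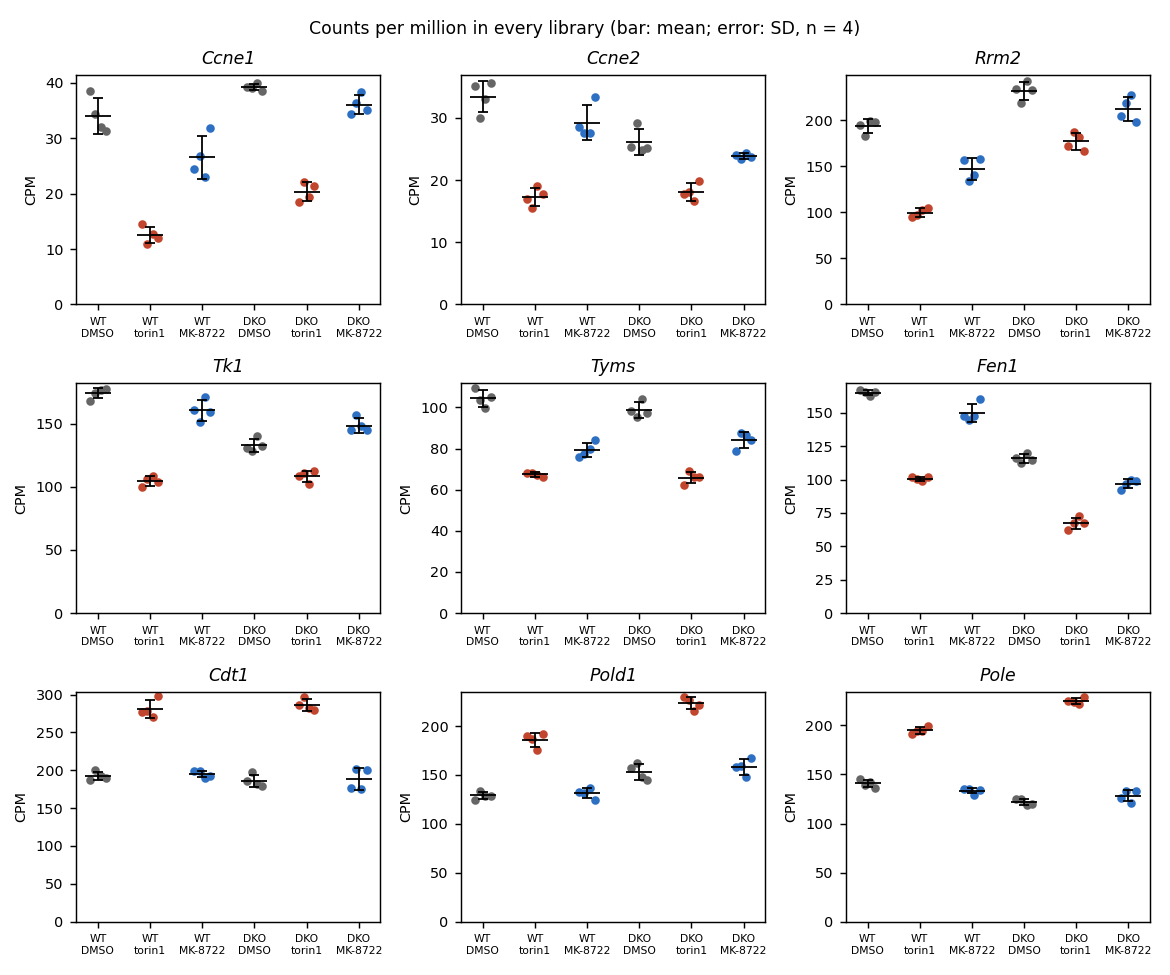
CPM of 9 members in every library, with 1 point per library, a horizontal bar for the mean and error bars for the SD of the 4 libraries of each group (gray, DMSO; red, torin1; blue, MK-8722). The red points of *Ccne1*, *Ccne2*, *Rrm2*, *Tk1*, *Tyms* and *Fen1* lie below the gray ones in both genotypes and those of *Cdt1*, *Pold1* and *Pole* above them.

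MK-8722 changed fewer members than torin1, with which it shares the DMSO libraries, and those called in WT all fell. They were 9 of 37, while 0 were upregulated, against 5.87% down and 10.3% up among all tested genes. Without the fold limit, 25 members were down and 2 up, and 15.2% of all genes were down. No member was upregulated by DESeq2 either, and 2 were up at an unadjusted p under 0.05. The median log2 FC was -0.15 for the members, with 32 of 37 below 0, and -0.01 for all genes. The libraries of 24 members did not overlap, 22 lower and 2 higher, compared with 29.8% of all genes.

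*Tyms* fell most with MK-8722 in WT. Its libraries measured 76.1, 77.5, 79.6 and 84.1 CPM, below all DMSO libraries (log2 FC -0.40, SE 0.04, adjusted p = 1.46e-07). *Rrm2* measured 156, 134, 140.5 and 158 CPM, which also lay below every DMSO library (log2 FC -0.40, SE 0.05, adjusted p = 6.79e-06). *Cdc6* (-0.36, adjusted p = 3.43e-06), *Ccne1* (-0.36, adjusted p = 0.00294), the clamp loader subunit *Rfc5* (-0.35, adjusted p = 1.52e-06) and *Mcm5* (-0.33, adjusted p = 2.44e-08) followed by log2 FC. *Mcm5* and *Rfc5* were not called with torin1, where their log2 FC were -0.12 and -0.10. *Ccne1* measured 24.5, 26.8, 23.1 and 31.8 CPM, of which replicate 4 exceeded a DMSO library, so that the groups overlapped (log2 FC -0.36, SE 0.09, adjusted p = 0.00294). The primase subunit *Prim1* measured 98.9, 87.8, 93.8 and 96.4 CPM under DMSO and 75.3, 75.1, 75.4 and 84.1 CPM under MK-8722 without overlap (log2 FC -0.28, SE 0.05, adjusted p = 6.17e-05). *Prim1* lost its call without WT DMSO replicate 1 (log2 FC -0.26), the hemimethylated DNA reader *Uhrf1* (-0.28) without WT MK-8722 replicate 2 (-0.26) and *Gins2* (-0.27) without WT DMSO replicate 2 (-0.25). *Uhrf1* and *Gins2* were also not called with library size alone (-0.26 and -0.26) or a transcript length offset (-0.26 and -0.24). *Slbp* (-0.26) gained a call without WT DMSO replicate 2 or WT MK-8722 replicate 1 or 4, with -0.32 to -0.28, and *Ccne2* (-0.19) without WT MK-8722 replicate 4 (-0.28). *Fen1*, *Tk1* and *Pcna*, which fell with torin1, had log2 FC of -0.14, -0.12 and -0.02 with MK-8722, and *Cdt1*, *Pold1* and *Pole* of 0.02, 0.03 and -0.08.

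In DKO MEFs MK-8722 changed no member past both limits in edgeR (0 up and 0 down) or in DESeq2 (0 and 0), while 5.47% and 3.21% of all tested genes were up- and downregulated. At an unadjusted p under 0.05, 19 members were lower and 4 higher, and the share of all genes at that limit was not taken. Without the fold limit, 11 members were down and 1 up, beside 10.3% of all genes down. The median log2 FC of the members was -0.08, with 30 of 37 below 0, and that of all genes 0.00. *Fen1* came closest, with 92.5, 96.9, 99.5 and 98.9 CPM under MK-8722, all below its DMSO libraries (log2 FC -0.26, SE 0.04, adjusted p = 1.03e-04). It was called without DKO DMSO replicate 2 or DKO MK-8722 replicate 3 or 4, at a log2 FC of -0.27. *Tyms* measured 78.6, 87.4, 86.4 and 84.1 CPM, also below all its DMSO libraries (log2 FC -0.23, SE 0.04, adjusted p = 4.42e-04), and *Rrm2* 204, 218.9, 227 and 198 CPM, which overlapped with DMSO (log2 FC -0.13, SE 0.05, adjusted p = 0.101). Altogether 16 members had libraries without overlap, 14 lower and 2 higher, beside 21.1% of all genes.

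When the drugs were set against each other, torin1 left 9 members higher and 10 lower than MK-8722 in WT, and 10 higher and 10 lower in DKO. Of all tested genes, 24.9% were higher and 20% lower in WT, and 21.1% higher and 19.3% lower in DKO. In both genotypes *Ccne1* had the largest difference below 0, at -1.08 (adjusted p = 1.13e-09) in WT and -0.82 (adjusted p = 4.86e-08) in DKO, and *Pole* the largest above it, at 0.55 (adjusted p = 3.63e-12) and 0.81 (adjusted p = 9.89e-15), on the log2 scale. *Cdt1* (0.53 in WT) and *Pold1* (0.50) were higher under torin1 as well, with every torin1 library above every MK-8722 library. *Prim1* (0.45), *Mcm6* (0.39), *Gins4* (0.34) and *Gins2* (0.29) differed between the drugs in WT although torin1 itself had not changed them past the limits. *E2f1*, a transcriptional activator of the replication genes, was lower under torin1 than under MK-8722 in WT (-0.38, adjusted p = 2.77e-08), where it measured 68.0, 68.8, 69.2 and 73.4 CPM and 92.2, 84.7, 90.5 and 96.3 CPM, and in DKO (-0.34, adjusted p = 1.54e-07), at 98.7, 98.1, 93.8 and 98.7 and 121, 123, 124 and 125 CPM. Its DMSO libraries lay between, at 82.5, 78.9, 81.7 and 80.5 CPM in WT. Scaling by library size alone gave 15 higher and 7 lower in WT, where the members' median turned from -0.02 to 0.06 and *Cdc6*, *Cdc45* and *Gins1* lost their calls (-0.24, -0.23 and -0.21). In DKO *Gins3* (0.27) lost its call without any 1 of 4 libraries (0.26), and *Rrm2* (-0.26) gained one without any 1 of 7 (-0.29 to -0.27), as did *Gins1* (-0.23) without DKO MK-8722 replicate 2 (-0.27). In WT *Gins1* lost its call without WT MK-8722 replicate 4 (-0.26) and *Gins2* without WT torin1 replicate 1 (0.23), while *Chaf1a* (-0.22) gained one without WT MK-8722 replicate 2 (-0.27) and *Tyms* (-0.24) without WT torin1 or WT MK-8722 replicate 1 (-0.26).

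**Figure D3:**
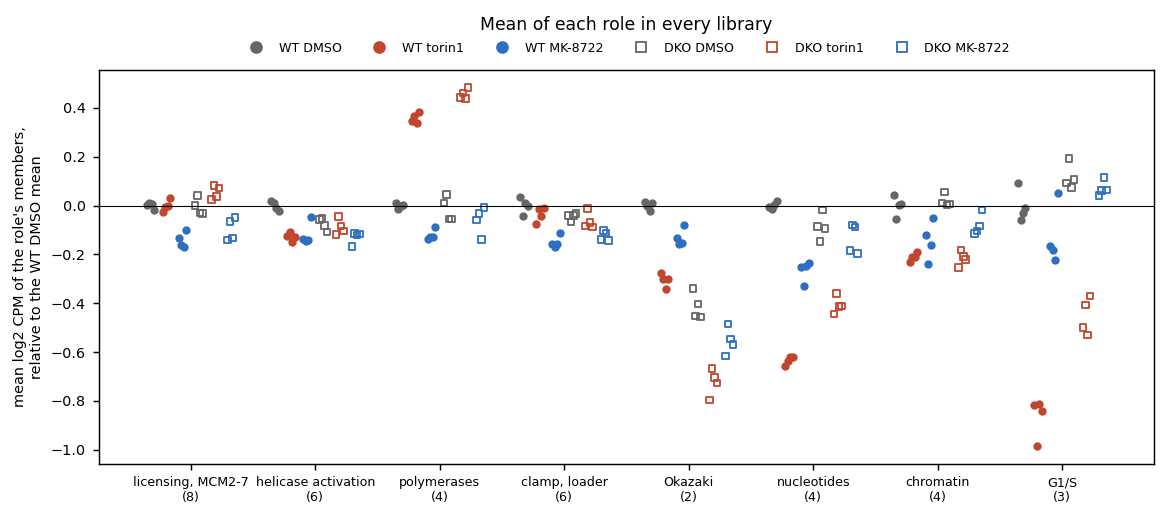
Mean log2 CPM of the members of each role in every library, relative to the WT DMSO mean, with the number of genes in parentheses, filled circles for WT, open squares for DKO and colors for treatment. Under torin1 the 4 polymerase genes averaged 0.36 ± 0.02 (SD, n = 4) in WT and 0.46 ± 0.02 in DKO, and the 4 nucleotide genes -0.63 ± 0.02 and -0.41 ± 0.03.

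Averaged by role in each library, the opposite movements under torin1 stood apart in WT, relative to WT DMSO. The G1/S regulators averaged -0.86 ± 0.08 log2 units (SD, n = 4), the nucleotide genes -0.63 ± 0.02, the Okazaki genes -0.30 ± 0.03 and the chromatin genes -0.21 ± 0.02. The polymerase genes averaged 0.36 ± 0.02, the licensing genes 0.00 ± 0.02 and the clamp genes -0.04 ± 0.03. These SDs are between libraries and not between members of a role. With torin1 in WT, member log2 FC ran from -0.71 to 0.10 among Okazaki genes and from -0.44 to 0.14 among chromatin genes. Among licensing genes it ran from -0.68 to 0.54. With MK-8722 in WT all roles lay below 0 on average, the nucleotide genes at -0.27 ± 0.04 and the polymerase genes at -0.12 ± 0.02, and the 37 members together at -0.15 ± 0.04.

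Under DMSO, DKO MEFs had 4 members higher and 7 lower than WT MEFs. These were 10.8% and 18.9% of the members, both below the 23.5% and 24.6% of all tested genes. The median log2 FC was -0.05 for the members and -0.01 for all genes. Scaling by library size alone gave 3 higher and 9 lower, with *Pola1* (0.23) no longer called. The Okazaki maturation genes were both lower. *Fen1* measured 167, 166, 162 and 166 CPM in WT and 116, 113, 120.1 and 115 CPM in DKO, with no overlap (log2 FC -0.51, SE 0.04, adjusted p = 1.37e-10), and *Lig1* was lower too (log2 FC -0.31, SE 0.05, adjusted p = 4.45e-06). *Tk1* (-0.39, adjusted p = 2.04e-08), *Prim1* (-0.39, adjusted p = 1.92e-07), *Ccne2* (-0.36, adjusted p = 1.88e-04), *Cdc6* (-0.28, adjusted p = 1.80e-05) and *Rfc2* (-0.27, adjusted p = 1.42e-07) were lower by log2 FC as well, and none of their libraries overlapped. *Rfc2*, a clamp loader subunit at 81.3, 79.2, 81.7 and 78.0 CPM in WT and 66.7, 65.0, 67.3 and 66.7 CPM in DKO, lost its call without WT DMSO replicate 1 or 3 or DKO DMSO replicate 2 (-0.26).

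*E2f1* was the most increased member in DKO under DMSO, at 111, 119.6, 107 and 118 CPM compared to 82.5, 78.9, 81.7 and 80.5 CPM in WT (log2 FC 0.50, SE 0.04, adjusted p = 2.19e-10). *Chaf1b*, the middle subunit of CAF-1, measured 91.7, 84.1, 84.7 and 85.0 CPM in WT and 115, 121, 117 and 112 CPM in DKO (log2 FC 0.43, SE 0.05, adjusted p = 5.07e-08). *Mcm6* measured 324, 360.0, 332 and 329 CPM and 449, 451, 419.8 and 425 CPM (log2 FC 0.38, SE 0.04, adjusted p = 7.85e-08). The libraries of the genotypes did not overlap in any of the 3 genes. *Pola1* was the fourth (log2 FC 0.30, SE 0.04, adjusted p = 1.11e-06). *Gins2* (-0.25) gained a call with passage as a block (-0.26) and without any 1 of 7 libraries (-0.28 to -0.27), *Rrm2* (0.26) without any 1 of 3 (0.27 to 0.28), and *Ccne1* and *Pold1* without 1 each (WT DMSO replicate 1, 0.27, and DKO DMSO replicate 4, 0.26). In all, 21 members had libraries without overlap between the genotypes, 13 lower and 8 higher in DKO, beside 56.8% of all genes.

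Under torin1, 6 members were higher and 3 lower in DKO than in WT. These were 16.2% and 8.11% of the members, both below the 24% and 27.8% of all tested genes. Scaling by library size alone, which shifted the median of all genes by -0.127, gave 4 higher and 7 lower, without *Pola1* (0.23) and *Pold1* (0.14), and a transcript length offset 5 and 4. No shares of all genes were taken under these scalings, so these counts have no background beside them. Members had a median log2 FC of 0.03, against -0.04 for all genes, and their median turned to -0.09 with library size alone. *Rrm2* differed most, 1.78-fold higher in DKO (log2 FC 0.83, SE 0.06, adjusted p = 8.56e-12), followed by *Ccne1* (0.69, adjusted p = 6.11e-07), *Mcm6* (0.53, adjusted p = 2.94e-10), *E2f1* (0.48, adjusted p = 3.51e-10), *Pola1* (0.35, adjusted p = 7.29e-08) and *Pold1* (0.27, adjusted p = 7.89e-06). *Mcm6* measured 429, 388, 371 and 384 CPM in WT and 554, 563, 558 and 589 CPM in DKO under torin1, without overlap. *Fen1* (-0.58, adjusted p = 1.47e-11), *Prim1* (-0.43, adjusted p = 2.77e-08) and *Rfc2* (-0.27, adjusted p = 1.33e-07) were lower. *Prim1* measured 105, 107, 107 and 105 CPM in WT and 76.2, 80.1, 79.4 and 78.8 CPM in DKO, and *Rfc2* 80.2, 86.9, 82.7 and 83.3 and 71.6, 67.3, 71.0 and 67.0 CPM, both without overlap. *Rfc2* and *Pold1* lay at the fold limit. *Rfc2* lost its call without any 1 of 13 libraries (-0.26 to -0.24) and *Pold1* without any 1 of 6 (0.25 to 0.26), and *Lig1* (-0.25) gained one without DKO torin1 replicate 2 (-0.28).

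Under MK-8722 the counts were also 6 higher and 3 lower, 16.2% and 8.11% of the members, both below the 23.3% and 25.4% of all tested genes. With scaling by library size alone the counts were 5 and 7, and *Pold1* (0.19) was not called. The members' median log2 FC was 0.02 (all genes, -0.01) and -0.06 with library size alone. *Mcm6* (0.54, adjusted p = 2.08e-10), *Rrm2* (0.53, adjusted p = 1.65e-08), *Ccne1* (0.44, adjusted p = 1.32e-04), *E2f1* (0.44, adjusted p = 1.70e-09), *Pola1* (0.34, adjusted p = 1.60e-07) and *Pold1* (0.27, adjusted p = 8.80e-06) were higher by log2 FC. *Fen1* was lower, with 148, 145, 148 and 160.3 CPM in WT and 92.5, 96.9, 99.5 and 98.9 CPM in DKO (log2 FC -0.63, SE 0.04, adjusted p = 3.79e-12), and so were *Prim1* (-0.31) and *Ccne2* (-0.29). *Prim1* measured 62.5, 61.1, 60.2 and 66.6 CPM in DKO, all below its WT libraries. *Ccne2* at 28.6, 27.5, 27.5 and 33.4 CPM in WT and 24.1, 23.4, 24.4 and 23.8 CPM in DKO did not overlap, and its call was lost without WT MK-8722 replicate 4 (-0.23) and with passage as a block (-0.22, adjusted p = 0.00247). *Pold1* lost its call without any 1 of 10 libraries (0.23 to 0.26), *Mcm2* (-0.25) gained one without any 1 of 4 (-0.28 to -0.27), and *Lig1* (-0.21) without DKO MK-8722 replicate 2 (-0.27). The members without overlap were 21 under torin1 (60.3% of all genes) and 17 under MK-8722 (54.7%).

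The test of whether genotype altered the response to torin1 (the log2 FC in DKO minus that in WT) called 5 members higher in DKO and 0 lower, beside 4.68% and 6.33% of all tested genes. At an unadjusted p under 0.05, 12 were higher and 2 lower, with no share of all genes taken at that limit, and DESeq2 called 5 and 0. The median difference was 0.05 for the members and -0.01 for all genes, and the members' median was -0.004 with library size alone, where the same counts were called. *Rrm2* fell by 0.96 in WT and by 0.39 in DKO on the log2 scale, and the difference between these falls was 0.57 (SE 0.08, adjusted p = 1.80e-05). *Tk1* (difference 0.44, SE 0.06, adjusted p = 1.12e-05), *Ccne1* (difference 0.49, SE 0.13, adjusted p = 0.0102) and *Ccne2* (difference 0.41, SE 0.10, adjusted p = 0.00872) also fell less in DKO than in WT, although *Ccne2* lost its call with a transcript length offset (0.44, adjusted p = 0.104), which left 4 members called. *Pole* rose more in DKO, by 0.88 compared with 0.47 in WT (difference 0.42, SE 0.05, adjusted p = 9.24e-07). Under torin1 *Tk1* measured 105 ± 3.64 CPM in WT and 109 ± 4.44 CPM in DKO (SD, n = 4), from different levels under DMSO, 174 ± 4.14 and 133 ± 5.14 CPM. *Ccne2* likewise measured 17.4 ± 1.44 and 18.1 ± 1.39 CPM under torin1, whereas *Rrm2* stood at 99.6 ± 4.61 CPM in WT and 177 ± 8.98 CPM in DKO. *Fen1*, *Cdc6*, *Tyms*, *Cdt1* and *Pold1* changed with torin1 in both genotypes, and the differences between these responses (-0.07, 0.09, 0.05, 0.08 and 0.02) did not pass the test. Without WT torin1 replicate 1 *Gins2* was also called (0.30), and without replicate 3 *Gins3* (0.26).

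**Figure D4:**
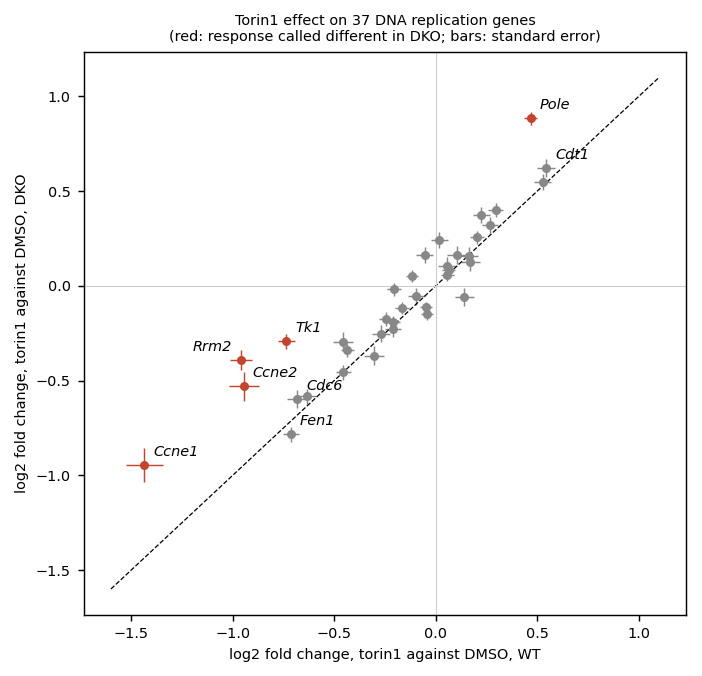
Log2 FC with torin1 against DMSO in WT (horizontal) and *tfeb tfe3* DKO MEFs (vertical) for the 37 members, with bars for the standard error, a dashed line of equal change and red for the 5 members whose response was called different (*Ccne2* not with a transcript length offset). *Ccne1*, *Ccne2*, *Rrm2* and *Tk1* lie above the line at negative values and *Pole* above it at positive values, while *Fen1*, *Cdc6* and *Cdt1* lie near it.

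The response to MK-8722 differed between genotypes in 3 members, 2 higher in DKO and 1 lower, and in 1.42% and 4.08% of all tested genes. The median difference was 0.07 for the members and 0.01 for all genes. *Tk1* had a log2 FC of -0.12 in WT and 0.16 in DKO, where its libraries measured 145, 157, 148 and 145 CPM, above all DKO DMSO libraries, compared to 161, 151, 171 and 159 CPM in WT (difference 0.28, SE 0.06, adjusted p = 0.00313). *Rrm2* fell in WT but not past the limits in DKO (difference 0.27, SE 0.08, adjusted p = 0.0356). *Chaf1b* measured 96.1, 95.7, 94.0 and 106 CPM under MK-8722 in WT, all above its DMSO libraries, and 98.6, 104, 111 and 114 CPM in DKO, of which replicate 4 overlapped with DMSO, and its response was lower in DKO (difference -0.30, SE 0.07, adjusted p = 0.00625). These calls turned when single libraries were left out. *Rrm2* lost its call without WT DMSO replicate 1, 3 or 4, WT MK-8722 replicate 2 or 3, DKO DMSO replicate 2 or 4, or DKO MK-8722 replicate 2 or 3 (0.24 to 0.27), and with scaling by library size alone (adjusted p = 0.0539), which left 1 higher and 1 lower. Without the WT libraries of passage 11 *Tk1* was not called (0.26), nor was *Rrm2* without a filter or with the groups compared alone. *Tk1* also lost it without DKO DMSO replicate 2 or DKO MK-8722 replicate 2 (0.25 to 0.26) and *Chaf1b* without WT MK-8722 replicate 4 (-0.24), while *Slbp* (0.24) gained one without WT DMSO replicate 2 or WT MK-8722 replicate 1 or 4 (0.27 to 0.31).

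A list of 71 other replication genes (origin recognition, further polymerase subunits, fork protection, nucleotide supply, maintenance factors and the E2F network) was measured in the same comparisons. Torin1 downregulated 33 and upregulated 8 of them in WT (median log2 FC -0.24) and 24 and 15 in DKO (-0.13). These were 46.5% and 11.3% of the list in WT, beside 20.5% and 26.6% of all tested genes, and 33.8% and 21.1% in DKO, beside 20.2% and 23%. The largest falls were those of *E2f2* (-1.69 in WT and -1.06 in DKO), which encodes an activator E2F, and in WT of the ubiquitin ligase subunit *Skp2* (-0.91), and the largest rise in WT was that of the retinoblastoma gene *Rb1* (0.92), which restrains E2F. MK-8722 downregulated 10 and upregulated 3 in WT and 2 and 4 in DKO, and *Rb1* rose in both (0.43 and 0.45), as did *Rrm2b* (0.43 and 0.45), the p53-inducible partner of *Rrm1*. The list's shares were 14.1% down and 4.23% up in WT (all genes, 5.87% and 10.3%) and 2.82% and 5.63% in DKO (3.21% and 5.47%). Under DMSO 11 were higher and 24 lower in DKO, 15.5% and 33.8% beside 23.5% and 24.6% of all genes, with *E2f2* lowest (-1.06). The response to torin1 was called higher in DKO for 11 (15.5%, all genes 4.68%) and lower for 2 (2.82%, all genes 6.33%), the higher ones including *E2f2* (0.63) and the APC/C inhibitor *Fbxo5* (0.44), and that to MK-8722 higher for 1, *E2f5* (0.30), and lower for 0 (all genes, 1.42% and 4.08%). The list's 11 further subunits (polymerases, primase and RPA) did not rise as a set with torin1. In WT 3 were lower (27.3%) and 1 higher (9.09%), and in DKO 2 were lower and 2 higher. In WT the mean of *Pole2* went from 20.9 to 14.1 CPM and that of *Pole4* from 53.8 to 37.6 CPM, while that of *Pold4* went from 24.5 to 34.3 CPM.

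A list of 22 mitosis genes, whose mRNA peaks later in the cell cycle, was measured beside the members. Torin1 downregulated 4 and upregulated 3 in WT and 2 and 6 in DKO, with the kinetochore motor *Cenpe* highest (0.64 and 0.97). These were 18.2% and 13.6% of the list in WT, beside 20.5% and 26.6% of all tested genes, and 9.09% and 27.3% in DKO, beside 20.2% and 23%. MK-8722 lowered 3 in WT (13.6%, all genes 5.87%) and raised 4 in DKO (18.2%, all genes 5.47%). The response to MK-8722 was called higher in DKO for 14 of 22 (63.6%, beside 1.42% of all genes, with a median difference of 0.33), led by *Nusap1* (0.52) and *Cenpf* (0.50), against 2 of the 37 replication members (median 0.07) and a median of 0.01 for all genes. The difference between these lists was not tested.

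The exons of 13 members overlap those of a gene on the other strand, including *Fen1* with *Tmem258*, *Tk1* with *Afmid*, *Ccne2* with *Ints8*, *Pole* with *Gm15792* and *Mcm7* with *Ap4m1* and *Cops6*, and whether strand was used in counting is not given in the sources used here. *Fen1* lies at chr19:10199132-10204169 and *Tk1* at chr11:117815526-117826092 on GRCm38. *Ccne1* (chr7:38097984-38107534), *Rrm2* (chr12:24708241-24714146), *Tyms* (chr5:30058202-30073617), *Cdt1* (chr8:122568015-122573554) and *Pold1* (chr7:44532746-44548849) share no exon bases with another annotated gene. Processed copies could share reads with *Pcna* and *Tyms*. The pseudogene *Pcna-ps2* measured 2.56 to 5.97 CPM and *Tyms-ps* at most 0.213 CPM.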

How the data were processed

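The authors processed the reads with nf-core/rnaseq 3.11.2 and Ensembl release 102 on GRCm38 (STAR alignment, with UMIs considered) and deposited 2 values from salmon, unscaled estimated counts of genes and transcripts, and TPM. Estimated counts were rounded, filtered (filterByExpr, minimum count 10), scaled by TMM and fitted in edgeR 4.0.16 (quasi-likelihood, 24 libraries, 6 group means, 18 residual df). The p-values of 11 contrasts were adjusted by Benjamini-Hochberg over 15401 genes, with FC of at least 1.2 for a call. CPM are TMM-scaled. The methods name a batch removal whose batch is not given, and none was made. Libraries of a group differ in passage, so p-values measure the spread between cultures of a line. The members and lists were chosen with earlier results of these data known. Values in every library were given, by rule, for the largest 2 called members per drug comparison and under DMSO, the called responses (up to 3 per drug) and up to 3 members that moved against most. Other members were named by role, and other lists by their largest changes. Libraries sharing a replicate number did not vary together (60 pairs, median correlation of deviations 0.044). Those of the same genotype and labelled passage, which occurs once per treatment, had a median of 0.157 (24 pairs, 17 over 0.1), and 20 of 24 correlated best with such a library. On simulated counts for torin1 in WT with 14994 genes, 100 of 100 genes changed by 1 log2 unit and 48 of 100 changed by 0.4 were called, as were 13 of 14794 unchanged genes. Only these genes were changed there, whereas torin1 in WT called 26.6% of tested genes higher and 20.5% lower. The simulated shares therefore need not hold for the members. DESeq2 1.42.0, other scalings and filters, a replicate or passage block and omission of libraries were the alternatives. Coordinates come from GENCODE M21 and promoter sequences from RefSeq.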

Additional observations from a re-analysis of the deposited data

Results flagged for a closer look

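Among 84 sets of 4 libraries (14 members in 6 groups), 6 held a library far from the other 3 by Dixon's criterion at the 95% level, which chance gives in about 1 of 20 sets. They were *E2f1* in DKO torin1 replicate 3 (93.8 CPM), *Chaf1b* in WT DMSO replicate 1 (91.7 CPM) and DKO torin1 replicate 1 (107 CPM), *Mcm6* in WT MK-8722 replicate 2 (319 CPM), *Prim1* in WT MK-8722 replicate 4 (84.1 CPM) and *Ccne2* in DKO DMSO replicate 2 (29.2 CPM). The response to torin1 differed between DKO and WT for *Rrm2* (0.57), *Ccne1* (0.49), *Tk1* (0.44), *Pole* (0.42) and *Ccne2* (0.41), and that to MK-8722 for *Tk1* (0.28), *Rrm2* (0.27) and *Chaf1b* (-0.30), as differences of log2 FC called by edgeR.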

How the results depend on the processing

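No called member changed sign under another scaling, but with library size alone the members' median did so for DKO against WT under torin1 (-0.09) and MK-8722 (-0.06), for torin1 against MK-8722 in WT (0.06) and for the torin1 response (-0.004). Apart from single libraries left out, 236 counts of members stayed within 1.5 times and 28 did not. Without the fold limit the counts (higher, then lower where it moved) were 10 higher for torin1 in WT, 2 and 25 for MK-8722 in WT, 14 and 18 for torin1 in DKO, 1 and 11 for MK-8722 in DKO, 8 and 15 for DKO against WT under DMSO, 11 and 9 under torin1, 14 and 9 under MK-8722, 9 and 1 for the torin1 response, 8 higher for the MK-8722 response, and 16 higher for torin1 against MK-8722 in WT and 16 in DKO. The share of all tested genes without the fold limit was taken only for genes lower with MK-8722 (15.2% in WT and 10.3% in DKO). The other counts without it, those at an unadjusted p under 0.05 and those with another scaling, filter or test have no such share beside them. With library size alone, 7 were lower in DKO under torin1 and 7 under MK-8722, 1 higher in the MK-8722 response and 15 higher for torin1 against MK-8722 in WT. The stricter filter gave 5 lower in DKO under torin1. Without a filter, 1 (*Fen1*) was lower with MK-8722 in DKO and 1 higher in the MK-8722 response, which was also 1 with the groups compared alone and without the WT libraries of passage 11. Without the DKO libraries of passage 8, 1 was lower with MK-8722 in DKO.

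Leaving out 1 library gave 0 to 1 lower with MK-8722 in DKO, 0 to 3 higher and 0 to 1 lower in the MK-8722 response, 2 to 3 lower in DKO under torin1 and 2 to 4 under MK-8722, 4 to 5 higher and 11 to 13 lower with torin1 in WT, and 8 to 11 lower with MK-8722 in WT. The replicate numbers did not pair the libraries (7 of 24 correlated best with their own number), and with the replicate number as a block the count of members higher with torin1 in WT was 5 and that of lower ones 12, as without it, with no count moved by over 1.5 times. With passage as a block, within genotype for drug effects, no drug or response count moved, and 8 rather than 7 members were lower in DKO under DMSO and 2 rather than 3 under MK-8722. All members exceeded 10 CPM in every library, and 4 libraries per group set the precision.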
